A study of Oncorhynchus mykiss with 14 samples.

Results

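miR-210 was followed through mature adipocytes, the lipid-storing cells of fat, of adult rainbow trout. Entries of the deposited table were taken where the name begins with ssa-miR-210, and 1 of the 899 entries met this rule: ssa-miR-210-5p, the 5p arm, with a mature length of 22 nt. No entry for the 3p arm met the rule, so that arm was not analysed here. Of the 899 entries, 256 carry Atlantic salmon miRNA names.

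Visceral fat (VAT) gave 4 libraries, numbered 1, 3, 4 and 5, while subcutaneous (SAT) and intramuscular fat (IMAT) gave 5 libraries each. All fish were untreated adults held in fresh water at 15 °C with 12 h of light and fasted for 24 h, and the adipocytes were freed with collagenase type II. The design asks how adipocytes of the 3 places in the body differ. Nothing in the labels ties a library to 1 fish, so p-values measure the spread between these libraries, which may be technical.

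miR-210 is the best-known miRNA of low oxygen. In mammals its gene is switched on by hypoxia-inducible factor 1 (HIF-1), the transcription factor that is stabilised when oxygen falls. The miRNA lowers ISCU, a scaffold protein for iron-sulphur clusters of the mitochondria, and GPD1L, a relative of glycerol-3-phosphate dehydrogenase. In mammals the 3p arm of its precursor is the one usually studied as the active strand, and the 5p arm is its partner. Oxygen was not measured here.

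Libraries held 759369 (IMAT 4) to 11843805 (IMAT 5) summed counts on miRNA entries. Of 39 names listed with both arms, 15 had nearly the same counts on both (within 2 reads or 10% where both were above 0). The arm written in a name is therefore uncertain for some entries, and for miR-210 it could not be checked. miR-210-5p shared its reads with no other entry. The markers of muscle, 9 entries for miR-1, miR-133, miR-206 and miR-499, took 65.5 to 89.6% of counts in IMAT, 3.37 to 11.9% in SAT and 0.0888 to 4.65% in VAT. A level in IMAT therefore depends on how a library is scaled. The level of miR-210-5p is given on 2 scales: the deposited CPM, the share of a miRNA in the library's summed counts with no length term, and the CPM after TMM scaling, which sets libraries to one level by the bulk of their miRNAs. IMAT 5 lay apart from the other IMAT libraries in miR-210-5p, and the tests of IMAT are given with and without it. It was picked by its low value of the miRNA tested, so leaving it out raises the IMAT mean and narrows the spread. Results without it describe the other IMAT libraries and are no separate support. Entries of the list for adipocytes (miR-30, miR-103 and miR-143, which other cells also make) were above 0 in every depot and took 2.17 to 7.07% of counts in VAT, 2.18 to 3.22% in SAT and 0.469 to 2.77% in IMAT.

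miR-210-5p was detected in all 14 libraries. In VAT its read counts ran from 132 in VAT 3 to 421 in VAT 5. In SAT the mean was 320.4 ± 71.0 reads (SD, n = 5) with 236 at the lowest, in SAT 4, and in IMAT the counts ran from 65 in IMAT 4 to 293 in IMAT 2. The lowest count, 65 in IMAT 4, came from the shallowest library and corresponds to 85.6 CPM, with an exact Clopper-Pearson 95% interval of 66.1 to 109 CPM. In IMAT 5 the interval was 19.8 to 25.3 CPM, clear of the other 4 IMAT libraries. Such intervals hold counting error alone, because amplified reads are not independent molecules.

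As a share of the library, miR-210-5p was lowest in VAT. The deposited values were 42.2, 29.2, 34.4 and 38.0 CPM in VAT 1, 3, 4 and 5 (35.9 ± 5.53, SD, n = 4). In SAT 1 to 5 they were 136, 84.1, 85.8, 85.6 and 110 CPM (100.4 ± 22.9, n = 5). In IMAT 1 to 5 they were 69.9, 66.1, 55.8, 85.6 and 22.5 CPM (60.0 ± 23.5, n = 5). No VAT library reached a SAT library on this scale. IMAT 4 was level with SAT 2, 3 and 4, the other IMAT libraries were below every SAT library, and IMAT 5 was below every VAT library.

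After TMM scaling VAT remained lowest and IMAT moved above SAT. In VAT 1, 3, 4 and 5 the level was 38.9, 15.1, 22.5 and 25.0 TMM-scaled CPM (25.4 ± 9.93, SD, n = 4). SAT 1 to 5 held 80.6, 72.5, 76.6, 53.5 and 76.1 (71.9 ± 10.7, n = 5), and IMAT 1 to 5 held 159.7, 219.9, 107.3, 102 and 32.6 (124.3 ± 70.0, n = 5). The 4 other IMAT libraries were above every SAT library, while IMAT 5 was below all of SAT and below VAT 1. Without IMAT 5 the IMAT mean was 147 ± 55.1 (n = 4). In bulk samples such as these, fewer cells with a miRNA and less of it per cell cannot be told apart.

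**Figure D1:**
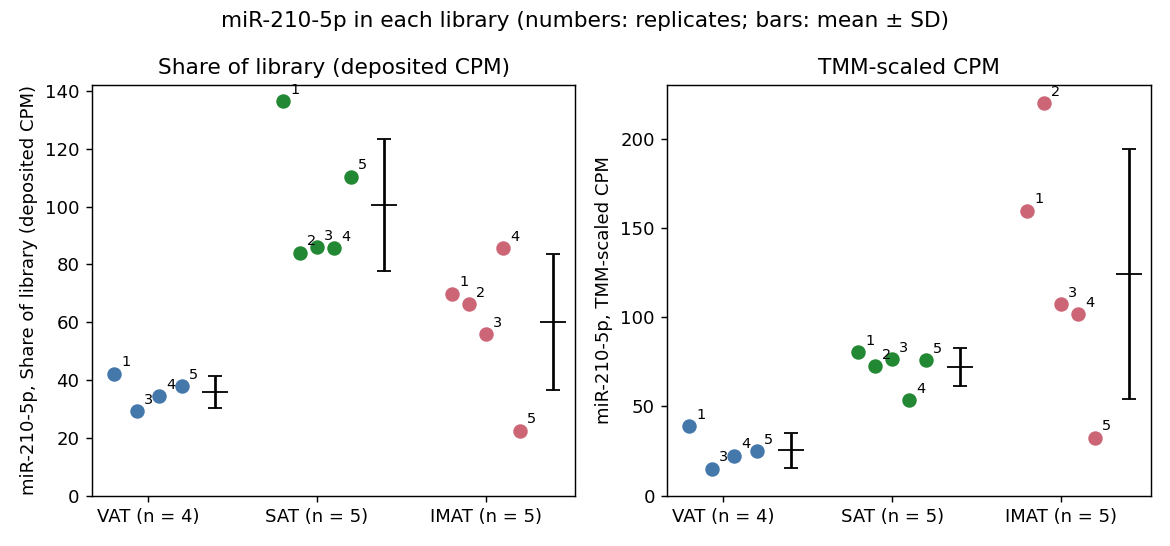
Level of miR-210-5p in each library of VAT, SAT and IMAT as deposited CPM (left) and as TMM-scaled CPM (right), 1 point per library numbered by replicate, with mean ± SD beside each depot. VAT is lowest on both scales, SAT and IMAT change places between them, and IMAT 5 (22.5 deposited CPM, 32.6 TMM-scaled CPM) is far below the other IMAT libraries.

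The first question was how adipocytes from under the skin differ from those around the viscera. Muscle miRNAs took 3.37 to 11.9% of counts in SAT and 0.0888 to 4.65% in VAT. A difference between these depots therefore need not be one between adipocytes. miR-210-5p was 2.83-fold higher in SAT, a log2 fold change of 1.50 ± 0.48 (SE), and the libraries of these depots did not overlap on either scale. Its Benjamini-Hochberg adjusted p was 0.058 in the edgeR quasi-likelihood test over all 327 entries, just above the threshold of 0.05, so it was not called. In this comparison 41 entries were called (12.5% of those tested), 24 of them higher in SAT (7.34%). With no overlap 38 entries were higher in SAT on TMM-scaled CPM (11.6%) and 43 on the deposited scale (13.1%). An exact two-sided permutation test on the mean log2(TMM-scaled CPM + 1) gave a difference of 1.53 with p = 0.016, the smallest p that 4 against 5 libraries allow (adjusted p = 0.048 over the 3 depot comparisons).

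The SAT and VAT difference had the same sign in all 27 alternatives of the fit, with log2 fold changes of 1.10 to 1.59. It was called in 5 of them, of which library totals without IMAT 5 was added after seeing the data. Without IMAT 5, which is in neither depot but adds to the shared estimate of spread, the difference was 1.24 ± 0.30 (edgeR adjusted p = 0.016, where 14.9% of entries were called). In the fit of only SAT and VAT it was 1.23 ± 0.28 (adjusted p = 0.024, 12.7% called), and with library totals as the only scaling it was 1.48 ± 0.41 (adjusted p = 0.039, 10.1% called).

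The next question was how adipocytes from within the muscle differ from visceral ones. Muscle miRNAs took 65.5 to 89.6% of counts in IMAT, so a difference of IMAT from another depot need not be one between adipocytes. In edgeR miR-210-5p was called 4.89-fold higher in IMAT than in VAT (2.29 ± 0.50 on the log2 scale, adjusted p = 0.0063). Of all 327 entries 44 were called (13.5%), 25 of them higher (7.65%) and 19 lower in IMAT (5.81%). IMAT 5 overlapped VAT, and the other 4 IMAT libraries were above all VAT libraries. Without IMAT 5 the log2 fold change was 2.67 ± 0.33 (edgeR adjusted p = 0.00019, 21.1% called). The exact two-sided permutation test gave a difference in mean log2 level of 2.08 (p = 0.032, adjusted p = 0.048). Without IMAT 5 that difference was 2.49 (exact p = 0.029, adjusted p = 0.029).

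This call depended on the scaling. With library totals only, the log2 fold change was 0.74 ± 0.41 (edgeR adjusted p = 0.14), where 49.5% of entries were called, most of them lower in IMAT (44% of all). On that scale and without IMAT 5 it was 0.94 ± 0.33 (adjusted p = 0.030, 53.9% called). This last fit was added after seeing the data and is no separate support. With it counted, the call was kept in 26 of 27 alternatives, and the exception was library totals with all libraries.

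Between IMAT and SAT, neighbours in the order of levels, no difference passed the test with TMM and all libraries. With TMM the log2 fold change was 0.79 ± 0.44, or 1.73-fold higher in IMAT (edgeR adjusted p = 0.29, 6.73% called), which does not show that the depots have the same level. With library totals it was -0.75 ± 0.38 (adjusted p = 0.13, 40.1% called), so the direction between these depots was set by the scaling. Without IMAT 5, which was set aside for its low value, miR-210-5p was called higher in IMAT with TMM, by 1.43 ± 0.29 (edgeR adjusted p = 0.0083, 11.5% called). DESeq2 on all libraries also called it, at 1.19 ± 0.43 (adjusted p = 0.039, 14.4% called). Without IMAT 5 and with library totals it was -0.54 ± 0.31 (edgeR adjusted p = 0.16). The exact permutation test gave 0.55 with TMM (two-sided p = 0.29, adjusted p = 0.29) and -0.83 with library totals (p = 0.024, adjusted p = 0.036). Without IMAT 5 that test gave 0.97 with TMM (exact adjusted p = 0.024) and -0.52 with library totals (exact adjusted p = 0.048).

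**Figure D2:**
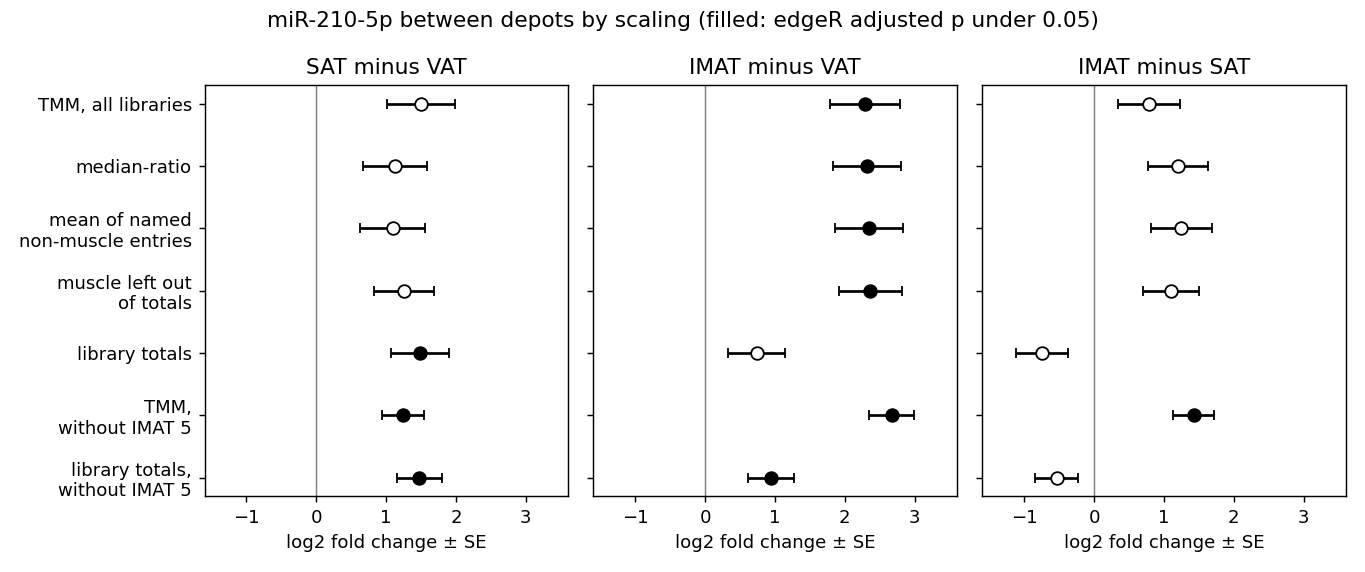
Log2 fold change of miR-210-5p ± SE for the 3 depot comparisons under 5 ways of scaling and without IMAT 5 under 2 of them; filled points have an edgeR adjusted p under 0.05. SAT against VAT stays between 1.10 and 1.50, IMAT against VAT drops to 0.74 with library totals, and IMAT against SAT changes sign there.

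Measures within a library do not depend on its scaling. Of the named entries, 151 were above 0 in all 14 libraries, and the 8 of them for muscle were left out here. Among the rest miR-210-5p ranked 95 to 110 by counts in VAT (1 is the most abundant), 76 to 86 in SAT and 56 to 69 in IMAT 1 to 4. In IMAT 5 it ranked 99, inside the range of VAT. The mean rank was 102.8 ± 6.13 in VAT (SD, n = 4), 80.2 ± 3.77 in SAT (n = 5) and 70.6 ± 16.6 in IMAT (n = 5). The rank is counted without a length term, and mature lengths in the table ran from 18 to 25 nt. On ranks turned into percentiles, SAT was above VAT by 15.9 points and IMAT above VAT by 22.6 points (exact two-sided permutation tests, p = 0.016 and 0.032, adjusted p = 0.048 for both). In the same exact test IMAT was above SAT by 6.76 points (p = 0.25, adjusted p = 0.25). Without IMAT 5, which was set aside for its low value, the ranks of no 2 depots overlapped. IMAT was then above VAT by 27.6 points and above SAT by 11.8 points (exact adjusted p = 0.029 and 0.024). The unadjusted exact p of 0.029 and 0.016 were the smallest that these numbers of libraries allow. How many other entries have ranks that separate in this way was not counted.

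Read against these other miRNAs one at a time, the ratio of miR-210-5p was higher on the mean in SAT than in VAT for 116 partners, in IMAT than in VAT for 127 and in IMAT than in SAT for 124. Without overlap between libraries the ratio was higher for 59, 46 and 12 partners and lower for 7, 2 and 1. Without IMAT 5 the ratio to 109 partners was higher in IMAT than in VAT with no overlap, and that to 99 partners was higher than in SAT. The partners share the count of miR-210-5p, some carry the same reads as each other, and they are no independent replicates. How often other miRNAs show such ratios was not counted.

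Among 219 named non-muscle entries tested, 25 had a larger log2 fold change than miR-210-5p from VAT to SAT, 15 from VAT to IMAT and 32 from SAT to IMAT. The TMM fit set the median of these entries at -0.07, -0.43 and -0.39 in the same order, and library totals set it at -0.16, -1.82 and -1.75. Measured from that median, miR-210-5p was 1.57, 2.72 and 1.18 higher with TMM and 1.64, 2.55 and 1.01 higher with library totals.

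**Figure D3:**
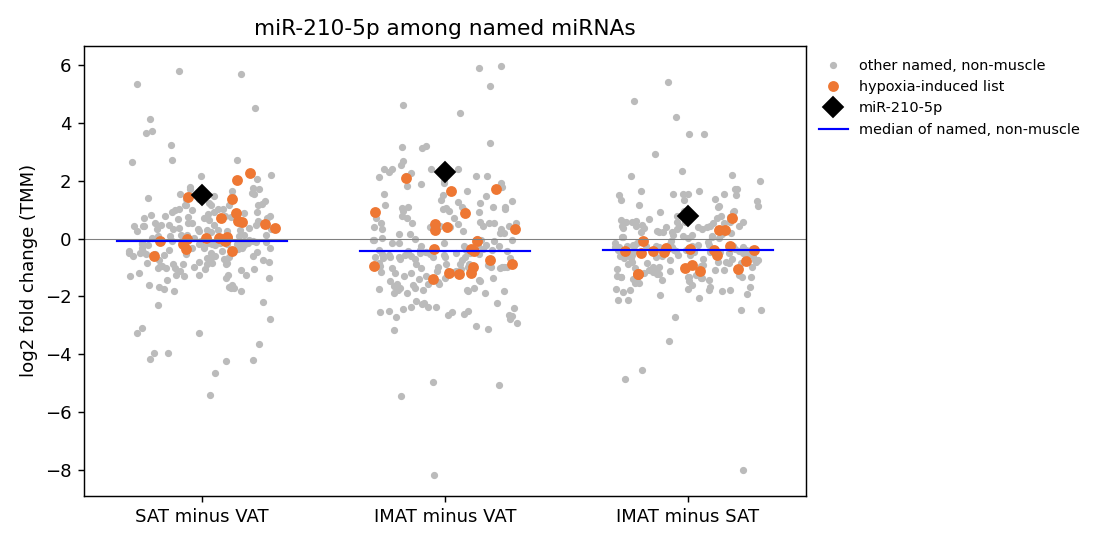
Log2 fold change with TMM scaling of the named non-muscle entries tested, 1 point each, in the 3 depot comparisons, with the hypoxia-induced list in orange, miR-210-5p as a diamond and the median as a line. miR-210-5p is above the median in each comparison (by 1.57, 2.72 and 1.18), and the hypoxia-induced list is spread around the median.

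The share of muscle miRNAs and the mean TMM-scaled level of miR-210-5p had the same order of depots, VAT lowest and IMAT highest, whereas on the deposited scale IMAT, with the highest muscle share, lay below SAT. In IMAT the library with the lowest muscle share, IMAT 5 at 65.5%, had the lowest miR-210-5p, and the one with the highest, IMAT 2 at 89.6%, had the highest TMM-scaled level. IMAT 2 also had the lowest TMM factor (0.301), by which its 66.1 deposited CPM were divided. Muscle share and TMM-scaled level are therefore not independent measures. In SAT the lowest muscle share (SAT 4, 3.37%) also went with the lowest TMM-scaled level, but the highest share (SAT 3, 11.9%) did not go with the highest level, which was in SAT 1, and on the deposited scale SAT 2 was lowest. In VAT it did not: VAT 3 had the highest muscle share (4.65%) and the lowest miR-210-5p. All 9 muscle entries were above 0 in each depot, with a summed level of 944500 to 2979000 TMM-scaled CPM in IMAT, 21060 to 106200 in SAT and 582 to 24100 in VAT. Their part in the levels of miR-210-5p was not tested. On the deposited scale the highest IMAT value was in IMAT 4 (muscle share 79.4%).

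**Figure D4:**
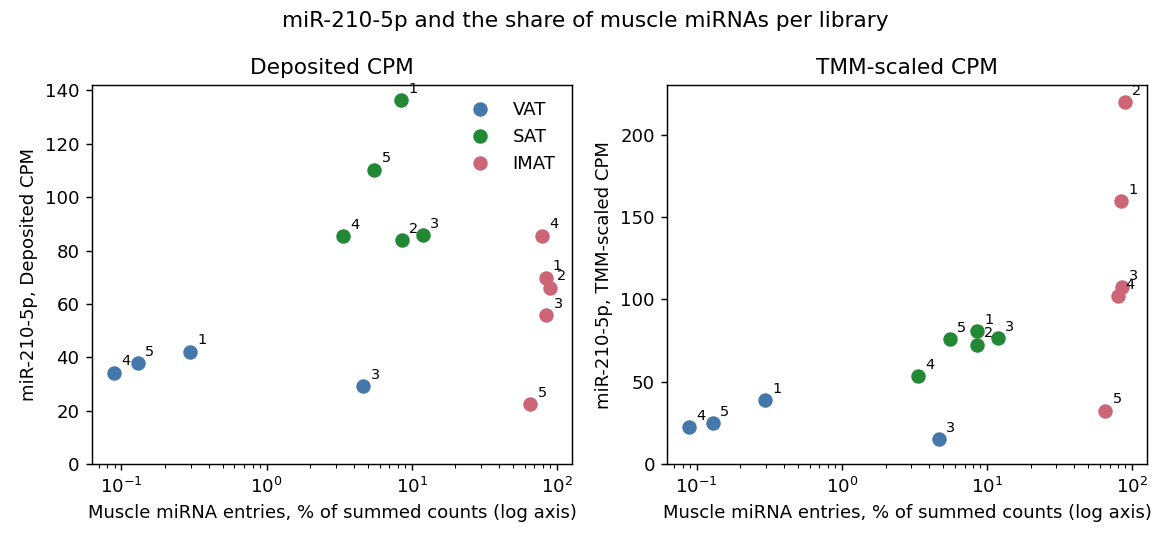
miR-210-5p against the share of counts on the 9 muscle entries (log axis), 1 point per library, as deposited CPM (left) and TMM-scaled CPM (right). IMAT 5 has the lowest muscle share of IMAT (65.5%) and the lowest miR-210-5p, whereas VAT 3 has the highest muscle share of VAT (4.65%) and the lowest miR-210-5p.

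Other cell types were followed by their own markers. The endothelial miR-126 took 1.23 to 4.37% of counts in VAT, 5.21 to 8.24% in SAT and 0.505 to 1.40% in IMAT. On the TMM scale it held 8070 to 40250 CPM in VAT, 36420 to 56840 in SAT and 9336 to 29890 in IMAT. On that scale IMAT lay within the range of VAT. Markers of white blood cells (miR-142, miR-150 and miR-155; 1 of 4 entries was at 0 in SAT) summed to 239 to 739 TMM-scaled CPM in VAT, 192.1 to 364 in SAT and 117 to 245 in IMAT. Those of red blood cells, the 2 arms of miR-144, summed to at most 24.0 TMM-scaled CPM in any library. No named entry matched miR-451, also on the list for red blood cells, or miR-223, on that for white blood cells. The low sum for miR-144 therefore leaves the content of red blood cells unmeasured by miR-451. Markers of gut and liver (miR-122, miR-192 and miR-194) summed to 256 to 573 in VAT, 66.0 to 97.3 in SAT and 51.8 to 154 in IMAT, and 2 of their 5 entries were at 0 in SAT and in IMAT. Their part in the result was likewise not tested.

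Other miRNAs from families that hypoxia raises in mammalian cell lines formed a list of 23 entries. They were those for miR-21, miR-23, miR-24, miR-26, miR-27, miR-103, miR-107 and miR-181. Of these 21 were tested, with 16 distinct sets of reads among them. Entries were listed by number, and whether each one responds to hypoxia, miR-27c-3p among them, was not tested. From VAT to IMAT 2 of the 21 were called higher and 1 lower, where 7.65% and 5.81% of all entries were, with a median log2 fold change of -0.35 (all entries -0.60). From VAT to SAT 1 was called higher and none lower, where 12.5% of all entries were called and 7.34% were higher, with a median of 0.06 (all entries -0.05). From SAT to IMAT none was called by edgeR in the fit of all libraries, where 6.73% of all entries were. The median was -0.43 (all entries -0.43). At an unadjusted p under 0.05 in edgeR were 2 of the list, beside 84 of all 327 entries. DESeq2 and limma each called 1 lower, where they called 14.4 and 17.4% of all entries. The edgeR fit of only SAT and IMAT called 2 lower (38 of 289 of all entries were called). From VAT to SAT limma called 3 higher and none lower, where it called 15.6% of all entries. DESeq2 called 1 higher and 1 lower there, where it called 19.3%. From VAT to IMAT the calls were 4 higher and 2 lower without IMAT 5, and 4 and 3 without VAT 4. They were 4 and 1 without IMAT 3, and 2 and 4 in DESeq2. Of all entries 68 of 323, 68 of 318, 48 of 322 and 86 of 327 were called in these fits. Without VAT 4, 4 were called higher from VAT to SAT (47 of 318 of all entries were called) and 3 higher from SAT to IMAT (47 of 318). Without VAT 5, 2 were called lower from SAT to IMAT (28 of 321 of all entries were called). Without VAT 4 none was called lower from VAT to SAT or from SAT to IMAT, and without VAT 5 none was called higher from SAT to IMAT. The direction of the calls from SAT to IMAT thus differed between these fits. Calls are counted per entry, so entries with the same reads, such as miR-23a-3-3p and miR-23a-3p, can count more than once. With library totals 12 were called lower and none higher from VAT to IMAT, and 11 lower and none higher from SAT to IMAT, where 44% and 37.9% of all entries were called lower.

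miR-27b-3p, which restrains the formation of fat cells in mammals, was one of the called entries. Its TMM-scaled CPM was 798, 573, 349 and 371 in VAT 1, 3, 4 and 5. In SAT 1 to 5 it was 1726, 2243, 2361, 1668 and 2694, and in IMAT 1 to 5 it was 2096, 2147, 1628, 1402 and 903. Every SAT and every IMAT library was above VAT, and IMAT 5 was again the lowest of IMAT. Of all entries 11.6% were higher in SAT than in VAT without overlap on this scale. The share for IMAT against VAT is not given here. On the deposited scale SAT (2600 to 3904 CPM) was clear of VAT (533 to 1104), but IMAT (622 to 1179) overlapped it. It was called higher than in VAT both in SAT (log2 fold change 2.03 ± 0.37, edgeR adjusted p = 0.0025) and in IMAT (1.65 ± 0.36, adjusted p = 0.0063; 1.86 ± 0.34 and 0.0023 without IMAT 5). With library totals the IMAT difference was 0.13 (adjusted p = 0.72; 0.22 and 0.56 without IMAT 5), and the SAT difference did not pass without a filter on low counts (1.70, adjusted p = 0.054).

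miR-23b-3p, which is made from the same cluster as miR-27b in mammals, rose from VAT to IMAT by 2.08 ± 0.56 on the log2 scale (adjusted p = 0.022 in edgeR, and 2.36 ± 0.47 with 0.0034 without IMAT 5). It held 14.2 to 93.0 TMM-scaled CPM in VAT, 72.6 to 134 in SAT and 102 to 246 in IMAT, where IMAT 5 was in the middle at 167. The call was lost with library totals (0.55, edgeR adjusted p = 0.41, or 0.41 and 0.55 without IMAT 5) and in the fit of only these depots (2.22, 0.065). It was also lost without VAT 3 (1.84, 0.057), without VAT 5 (1.77, 0.054) and with a block for replicate number (2.24, 0.077). miR-27c-3p, a relative of miR-27b, fell from VAT to IMAT with a log2 fold change of -1.22 ± 0.33 (adjusted p = 0.022 in edgeR, and -1.13 ± 0.26 with 0.010 without IMAT 5). Its libraries ran from 602 to 1899 TMM-scaled CPM in VAT and from 442 to 663 in IMAT, so they overlapped. That call was lost without IMAT 1, IMAT 2 or IMAT 4 (-0.94, -0.90 and -1.19, edgeR adjusted p = 0.061, 0.068 and 0.051). It was also lost without a filter (-1.01, 0.20), in the fit of only these depots (-1.06, 0.17) and with the block (-1.17, 0.11).

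miRNAs reported in mammals to act on HIF-1 alpha, the oxygen-sensed subunit of HIF-1, formed the other list. It held 12 entries for miR-17, miR-18, miR-20, miR-155, miR-199a and miR-429, of which 10 were tested. None was called in any of the 3 comparisons by edgeR (13.5, 6.73 and 12.5% of all entries were), with 1, 3 and 4 at an unadjusted p under 0.05 for IMAT against VAT, IMAT against SAT and SAT against VAT. Of all 327 entries 111, 84 and 81 were under that unadjusted p. In the same order DESeq2 called 0, 1 and 1 (26.3, 14.4 and 19.3% of all entries) and limma 0, 1 and 2 (22, 17.4 and 15.6%). With library totals edgeR called 6 lower, 3 lower and 1 higher (49.5, 40.1 and 10.1% of all entries). Without IMAT 5 none was called with TMM (21.1, 11.5 and 14.9% of all entries were). From SAT to IMAT 1 was lower without VAT 5 (28 of 321 of all entries were called). From VAT to SAT 1 was lower without VAT 4 (47 of 318 of all entries) and 1 higher without SAT 1 (29 of 321). The median log2 fold changes were -1.08, -0.61 and -0.72, beside -0.60, -0.43 and -0.05 for all entries.

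The named miRNA most like miR-210-5p over the 14 libraries was miR-499b-5p, which in mammals lies in a myosin gene and is made in heart and skeletal muscle. Likeness was the Pearson r of log2(TMM-scaled CPM + 1) among 124 candidates, named entries above 0 in every library with entries of the same reads taken once, and r is given as a description, since all values share the TMM factors. miR-499b-5p had an r of 0.90, and 0.73 for deviations from the depot means. It held 12.1 to 60.7 TMM-scaled CPM in VAT, 93.9 to 310 in SAT and 185 to 2042 in IMAT, and its lowest IMAT library was IMAT 5, as for miR-210-5p. miR-27b-3p ranked 3 with r = 0.83 and 0.72 within depots. Some candidates outside the 5 most alike had a higher r within depots, up to 0.87 for miR-128-2-3p.

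The other 3 of the 5 most alike shared the order of depots more than the order of libraries within them. miR-196b-5p, which in mammals lies in a Hox gene cluster, had r = 0.83 and 0.35 within depots. The muscle miRNAs miR-133a-3p and miR-499a-5p had r = 0.80 and 0.78, and 0.35 and 0.19 within depots. With library totals in place of TMM, 1 of these 5 names stayed among the 5 most alike: miR-27b-3p, which then ranked first (r = 0.79). Without IMAT 5 and with TMM, 4 of the 5 names stayed, miR-196b-5p came first (r = 0.94) ahead of miR-499b-5p (0.92), and miR-27b-3p (r = 0.82) ranked 10. With library totals miR-499b-5p had r = 0.59, and miR-133a-3p and miR-499a-5p had 0.40 and 0.39.

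**Figure D5:**
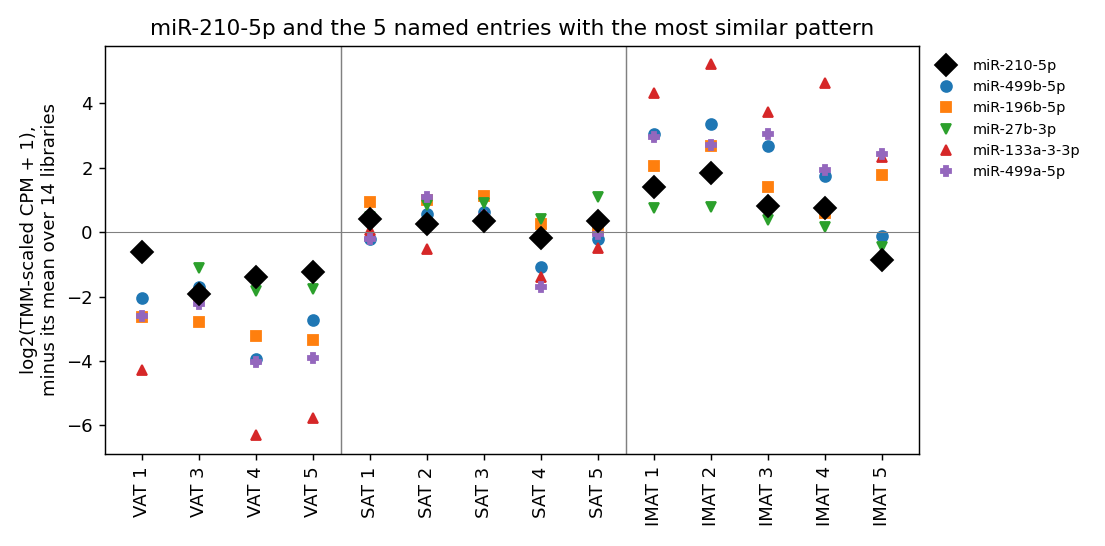
Level of miR-210-5p (diamonds) and of the 5 most similar named miRNAs in each library, as log2(TMM-scaled CPM + 1) minus its mean over the 14 libraries. All 6 are low in VAT; in IMAT 5 miR-210-5p, miR-499b-5p and miR-27b-3p fall below their mean while the others stay above it.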

How the data were processed

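Small RNA of mature adipocytes was sequenced in 14 libraries, grouped by the depot in their titles. Read counts per miRNA were deposited as whole numbers, unscaled. The deposited columns headed TPM are CPM values without a length term. Each equals the count over the library's sum, taken without the first entry listed, on the CPM scale within 0.005. The submitters' processing notes list Trimmomatic 0.30 and edgeR 3.4.6 but give them no role, and the aligner is not given in the sources used here. A total of 2 columns matched no sample label and were not used.

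Entries above 0 in at least 4 libraries (327, 228 named) were tested on the counts with edgeR 4.0.16 quasi-likelihood (R 4.3.3), 1 fit of all 14 libraries scaled by TMM without a block, with Benjamini-Hochberg adjustment over all entries and a threshold of 0.05. The fit was run on simulated data with the library sizes known, which did not test the scaling. Single values were compared by exact permutation. Alternatives were DESeq2 1.42.0, limma 3.58.1, other scalings and filters, fits of 2 depots, a replicate block, joined entries with the same reads (both above 0 in at least 4 libraries, 20 reads in 1, within 2 reads or 10%) and leaving out each library. Named are the member, called entries of the hypoxia lists and the 5 most alike. The member and the lists were chosen with earlier results of these data known.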

Additional observations from a re-analysis of the deposited data

Results flagged for a closer look

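The share of counts on muscle miRNAs in VAT had 1 library apart from the rest, VAT 3 at 4.65%, while the other 3 held 0.0888 to 0.297%. The same library stood apart for miR-133a-3-3p, 1 of the 2 entries for this muscle miRNA with the same reads, at 366 TMM-scaled CPM. Of 30 groups of libraries looked at, these 2 were marked, and chance marks about 1 in 20. VAT 3 also had the lowest miR-210-5p of VAT. Without it the log2 fold change of miR-210-5p was 2.11 from VAT to IMAT (edgeR adjusted p = 0.020) and 1.32 from VAT to SAT (adjusted p = 0.14). IMAT 5 was not marked for miR-210-5p on either scale.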

How the results depend on the processing

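Values are log2 fold changes of miR-210-5p unless stated. IMAT against VAT was 2.29 and kept its call except with library totals (0.74). SAT against VAT was 1.50 without a call, and was called with library totals (1.48), limma with a pseudocount of 1 (1.53; at 0.1 it was 1.56, adjusted p = 0.056, and not called), the fit of 2 depots (1.23), and, added after seeing the data, library totals without IMAT 5 (1.48). IMAT against SAT was called by DESeq2 (1.19) and turned to -0.75 with library totals and -0.54 with library totals without IMAT 5. Leaving out 1 library gave 2.11 to 2.67 for IMAT against VAT, 1.19 to 1.59 for SAT against VAT and 0.70 to 1.43 for IMAT against SAT; calls changed only without IMAT 5.

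The permutation test of IMAT against VAT (2.08) did not pass with median-ratio scaling (2.04) or library totals (0.61). That of IMAT against SAT turned to -0.83 with library totals and -0.52 with library totals without IMAT 5. Both of these passed, with IMAT the lower depot (exact adjusted p = 0.036 and 0.048). Leaving out 1 library gave 1.81 to 2.49, 0.29 to 0.97 (IMAT against SAT) and 1.32 to 1.75 (SAT against VAT). The IMAT against VAT test did not pass without any 1 VAT library or without IMAT 1, 2, 3 or 4, nor SAT against VAT without a VAT library, where the exact test of 3 against 5 cannot go below p = 0.036; IMAT against SAT passed without IMAT 5, also on percentile ranks (11.8 points, added after seeing the data).

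The 44, 22 and 41 entries called (IMAT against VAT, IMAT against SAT, SAT against VAT) became 26, 11 and 17 without a filter and 86, 47 and 63 in DESeq2. In the first comparisons they became 162 and 131 with library totals, 174 and 157 with these without IMAT 5, 72 and 57 in limma, 72 and 51 with a pseudocount of 0.1, and 27 and 38 in fits of 2 depots. Leaving out 1 library gave 34 to 68, 15 to 47 and 26 to 48. The cause was not tested.

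The labels do not say whether the replicate numbers pair the libraries. Same-numbered libraries had correlations of -0.24 to 0.19 between their deviations from the depot means, which cannot tell whether they share a fish. With the replicate block 28 and 27 entries were called in IMAT against VAT and SAT against VAT, and miR-210-5p changed by 2.06, 0.62 and 1.44 with no call of it altered (edgeR adjusted p = 0.041, 0.46 and 0.13). The calls of miR-23b-3p (2.24, adjusted p = 0.077) and miR-27c-3p (-1.17, 0.11) in IMAT against VAT were lost under the block. A total of 65 reads in IMAT 4 limits the precision of its level.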
